A study of Rattus norvegicus with 2 samples.

Results

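The AMPA and kainate receptor subunits are the 9 genes Gria1 to Gria4 and Grik1 to Grik5, out of 18822 genes named on the array. They were taken from the array files by gene symbol, as all rat rows with 1 of these 9 names, and all 9 were present. They were covered by 13 probes and 40 spots, and every one of these spots was well above background on both arrays. RNA came from the nucleus tractus solitarius (NTS), the medullary nucleus that receives the first central input of baroreceptor, chemoreceptor and other visceral afferents. The rats were Wistar Kyoto (WKY), a normotensive strain at 9 weeks of age. 1 pool held RNA of 5 males and 1 pool RNA of 5 females, 100 ng from each rat, with 1 single-colour array for each pool. The pooling leaves no spread between rats to set a difference against, so none of the comparisons has replicates or a test. In a whole-tissue sample, fewer cells of a type and less RNA per cell cannot be told apart.

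AMPA and kainate receptors are glutamate-gated cation channels built from 4 subunits. AMPA receptors carry most of the fast excitatory current at glutamate synapses, including those of visceral afferents on NTS neurons. The subunit encoded by Gria2 largely decides whether an AMPA receptor passes calcium, through an edited codon in the pore, and Gria1, Gria3 and Gria4 encode its partners. Kainate receptors act on both sides of the synapse: the products of Grik1, Grik2 and Grik3 can form channels on their own, whereas those of Grik4 and Grik5, with high affinity for kainate, need one of these as a partner.

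The probes are 60-base oligonucleotides whose sequences stand in the array files. 7 of them are shown, those with an open reading frame over all or nearly all of their length. They are shown because the values below are values of these oligonucleotides, not of whole genes, and because 2 pairs of genes have probes in related stretches. In the Gria2 and Gria3 sequences capitals mark the bases that match when both are laid side by side without gaps, and the other sequences are in lower case throughout.
Gria1 (A_43_P15761): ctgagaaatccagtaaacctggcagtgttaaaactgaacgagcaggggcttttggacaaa
Gria2 (A_64_P139295): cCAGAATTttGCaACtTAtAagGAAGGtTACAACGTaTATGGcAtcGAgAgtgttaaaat
Gria3 (A_44_P449764): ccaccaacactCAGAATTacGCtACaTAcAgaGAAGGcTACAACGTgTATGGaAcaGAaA
Gria4 (A_44_P323349): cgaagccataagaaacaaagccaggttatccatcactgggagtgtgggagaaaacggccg
Grik1 (A_64_P071775): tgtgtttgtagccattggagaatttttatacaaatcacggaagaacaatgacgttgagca
Grik1 (A_64_P083818): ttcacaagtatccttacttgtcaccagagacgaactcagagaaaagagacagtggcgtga
Grik4 (A_42_P543670): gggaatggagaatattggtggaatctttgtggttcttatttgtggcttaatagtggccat
The Gria2 and Gria3 probes matched at 36 of 50 overlapping bases, the highest identity (72%) among 74 pairs of probes from different subunit genes. The next pair was Grik2 (A_64_P042519) with the second Grik1 probe, at 31 of 54 bases (57.4%). The longest run of identical bases that any subunit probe shared with a rat probe of another gene on the array was 15 bases. Whether a probe also bound the transcript of another subunit was not tested.

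Levels are given as log2 of the processed signal relative to the 75th percentile of all rat spots on the same array, so that 0 is the 75th percentile. Differences are female minus male on this log2 scale, and a negative value means a higher level in the male pool. Every direction given is relative to that percentile: scaling by the spike-in probes moved all genes by 0.68 towards the female pool, which gave each of the 9 subunit genes a female excess. With that scaling, 95.5% of all genes had a female excess of 25% or more. Levels of different probes cannot be set against each other, because each oligonucleotide binds with its own strength. Error is given as the SD of the difference over repeated spots of probes of similar brightness. It was 0.07 for probes less than 4-fold below the 75th percentile, 0.09 from 4- to 16-fold below, 0.15 from 16- to 64-fold below and 0.33 for dimmer probes. This SD covers spotting and scanning noise only. Of 15562 genes with a probe well above background on both arrays, 613 (3.94%) had a female excess of 25% or more, that is, a female signal at least 25% above the male one, and 851 (5.47%) had a male excess of that size. At 2-fold or more in either direction there were 83 genes, 0.533%.

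None of the 9 subunit genes differed 2-fold between the pools, against 0.533% of all genes. A male excess of 25% or more was found in 2 of 9, Gria1 and Grik3, against 5.47% of all genes, and a female excess of that size in 0 of 9, against 3.94%. Gria1 was read by a bright probe on 10 spots, and Grik3 by a dim probe on 1 spot. The median difference over the 9 genes was -0.02, against -0.01 over all genes, with a female excess of any size in 4 of the 9, against 45.7% of all genes. The AMPA subunits had a median of 0.08 and the kainate subunits one of -0.02.

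**Figure D1:**
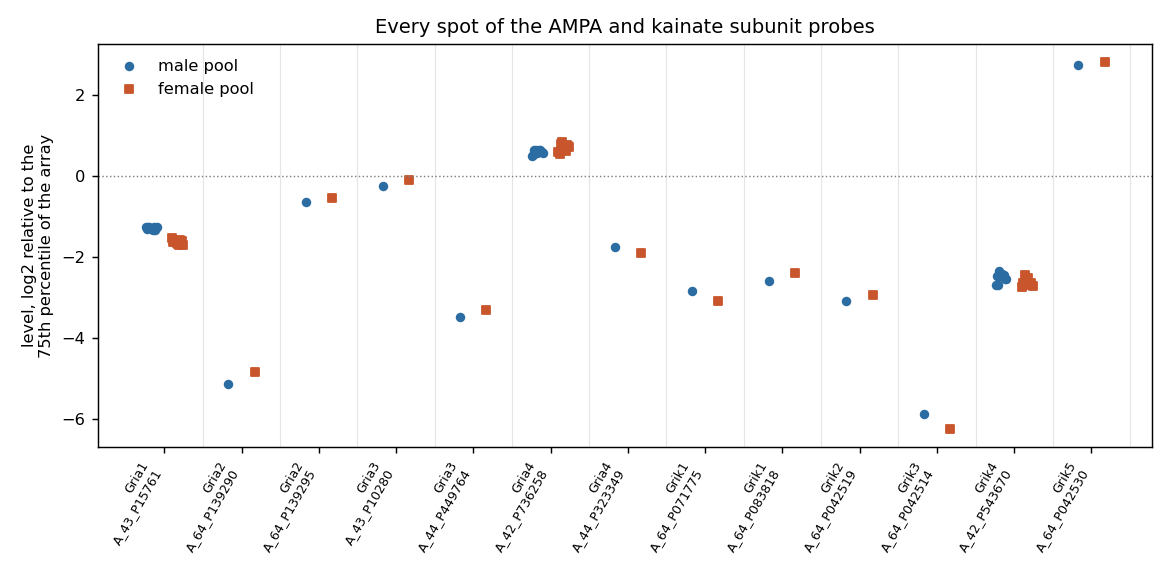
Level of every spot (vertical axis, log2 relative to the 75th percentile of its array, dotted line) for the 13 probes of the 9 subunit genes, with circles for the male pool and squares for the female pool. Levels are comparable between the pools for 1 probe and not between probes; the Gria1 spots of the pools stand apart, while those of the repeated Gria4 and Grik4 probes overlap.

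Gria1, which encodes the AMPA subunit GluA1, was read by 1 probe only. The signal of this probe was lower in the female pool under every scaling other than that on the spike-in probes. In the male pool its 10 spots gave processed signals from 1349 to 1439 with a median of 1406, and in the female pool they gave 1033 to 1165 with a median of 1090. The lowest male spot was above the highest female spot, so the spots did not overlap. On the scaled levels the male spots ran from -1.35 to -1.26 and the female spots from -1.71 to -1.54. The difference was -0.34 ± 0.05 (SD over 10 spots), a 1.27-fold change, and all 10 spots were higher on the male array, with spot differences from -0.44 to -0.26. Among 1325 repeated probes, 79 (5.96%) had no overlap of their spots and a male excess, and 64 (4.83%) had none and a female excess. In the brightness class of Gria1, less than 4-fold below the 75th percentile, 160 of 7368 genes (2.17%) had a male excess of 25% or more. This class has no upper limit, and Gria1, at a mean level of -1.47, lies towards its dim end. The share among genes closer to Gria1 in brightness was not computed. The array files give no genome position for this probe, list 1 transcript for it and name no variant. Which transcript forms of Gria1 it reads was not tested, so its difference may not hold for the whole gene.

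Gria1 lies close to the line of 25%, which is 0.32 on the log2 scale. With the arrays scaled by their medians its difference was -0.31. With quantile normalization, with the trend against brightness removed and with normexp background correction it was -0.32, each time just short of the line. Scaling by the spike-in probes turned Gria1 to 0.33. Its 3 spots in array regions with many male-bright dim spots gave -0.31, and the 7 spots outside gave -0.36.

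**Figure D2:**
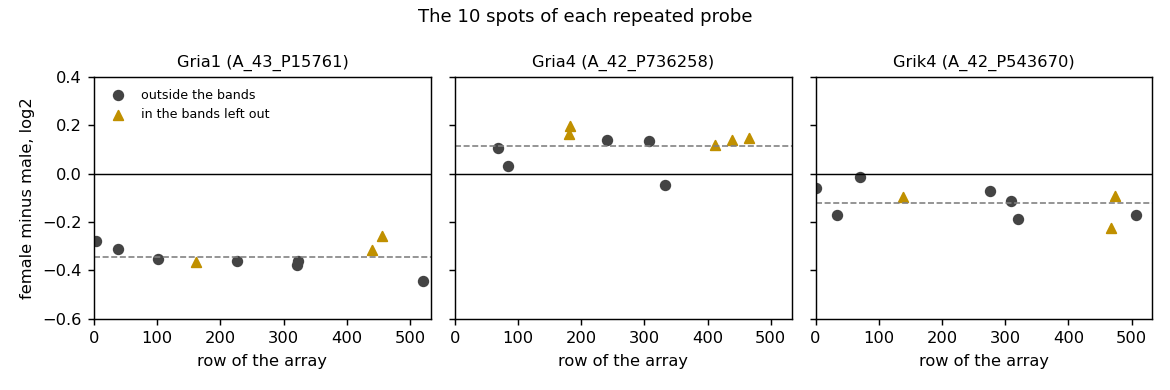
Difference of each of the 10 spots (vertical axis, female minus male, log2) against its row on the array (horizontal axis) for the repeated probes of Gria1, Gria4 and Grik4, with the mean as a dashed line. Triangles mark spots in the array regions left out in an alternative; with this scaling, though not on the spike-in probes, every Gria1 and Grik4 spot lies below 0, and 9 of 10 Gria4 spots lie above it.

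Gria2 and Gria3 lay on the other side of 0 from Gria1, and Gria4 had a probe on each side. Gria2, which encodes the subunit that limits calcium entry, was read by 2 probes of 1 spot each. The probe shown above, on chromosome 2 from 172269214 to 172269273 of the rat build rn4, minus strand, read 2197 for the male pool and 2324 for the female pool. They differed by 0.11, with a spot SD of 0.07. The other probe, from 172265169 to 172265228, read 98.4 and 118.5, which differ by 0.29, with a spot SD of 0.15. Both were higher on the female array, and their gap of 0.19 was close to the spot error of 0.17 for such a gap. The median of the probes, taken as the value of the gene, was 0.20.

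Gria3 is the X-linked member of the family. Its probe from 3452571 to 3452630 on the X chromosome, minus strand, read 2892 for the male pool and 3147 for the female pool, 0.15 apart. The probe shown above, from 3459714 to 3459773, read 306.5 and 342.7, 0.19 apart. These differences were 2.14 and 2.09 times their spot SD, and the probes differed from each other by 0.04, less than the spot error of 0.11. The gene value was 0.17, a 1.12-fold female excess.

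Gria4 gave opposite signs on its 2 probes. The repeated probe A_42_P736258, on chromosome 8 from 1016916 to 1016975, is assigned by the array files to transcript variant 3 only. Its 10 spots ran from 4802 to 5378 with a median of 5179 in the male pool. In the female pool they ran from 4884 to 6059 with a median of 5575. These ranges overlapped, 9 of 10 spots were higher on the female array, and the difference was 0.11 ± 0.07 (SD over 10 spots). The single-spot probe shown above, from 957385 to 957444, read 1022 and 908.2, which gave -0.14. The array files name variant 1 for it but list 2 transcripts. Whether the opposite signs follow the variants was not tested. The gap of 0.26 was 3.56 times its spot error. The single spot lies in an array region with many male-bright dim spots, and the part of that region in its value was not tested. The gene value of -0.02 is the midpoint of both probes and describes neither. Opposite signs were common on these arrays: of 2845 genes with several probes, 46% had them, as did 2 of the 4 subunit genes with 2 probes.

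Because 1 factor per array cancels, the difference of Gria1 minus that of another subunit does not depend on how the arrays were scaled. This quantity was -0.54 for Gria1 against Gria2, -0.51 against Gria3 and -0.33 against Gria4. The spot errors of these values were 0.09, 0.06 and 0.04. The Gria4 value rests on the midpoint of 2 probes with opposite signs, and its error leaves out their gap of 0.26. With the repeated Gria4 probe alone it was -0.46. It was not computed with the other probe alone. That probe's own difference of -0.14 lies on the same side of 0 as that of Gria1, so the value would be smaller in size. The range given below for Gria4 does not cover that choice. Gria1 signal relative to Gria2 signal was thus 1.46-fold lower in the female pool than in the male pool, and relative to Gria3 signal 1.42-fold lower. Over the alternatives computed, these values kept their sign and ran from -0.56 to -0.45 for Gria2, from -0.52 to -0.48 for Gria3 and from -0.46 to -0.30 for Gria4. They show unequal change of the signals and not which of the genes, or which of their transcript forms, changed.

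**Figure D3:**
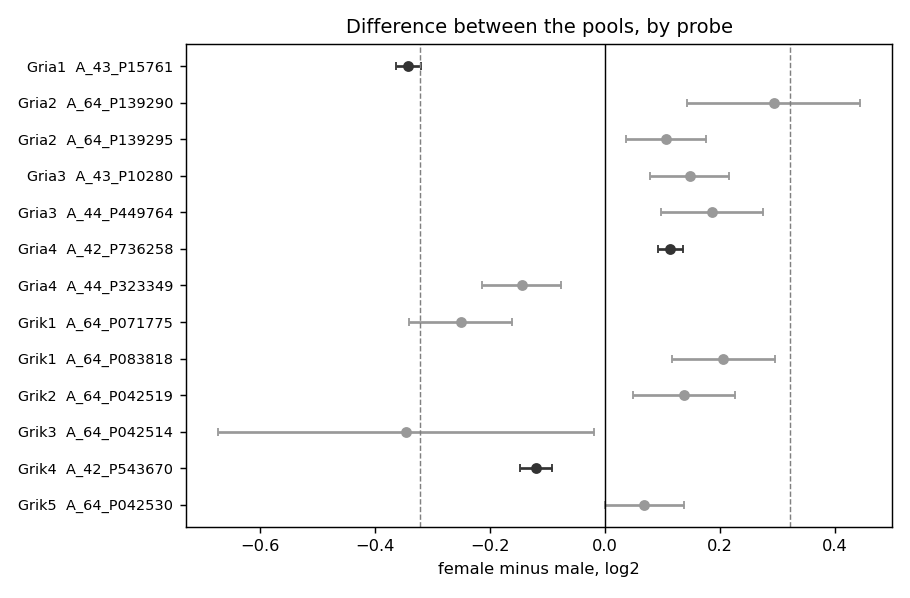
Difference between the pools for each of the 13 probes (horizontal axis, female minus male, log2), with bars of the spot SD of the probe's brightness class divided by the root of its number of spots. Dark points are probes with 10 spots and grey points probes with 1 spot, and dashed lines mark an excess of 25%; Gria1 and Grik3 lie beyond the line on the male side, Grik3 with a wide bar.

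Among the channel-forming kainate subunits, Grik1, which encodes GluK1, again gave opposite signs on its 2 probes. The first probe shown above, on chromosome 11 from 27722939 to 27722998, minus strand, read 477.7 for the male pool and 394.3 for the female pool, which gave -0.25. The second, from 27704155 to 27704214, read 565.8 and 641.2, which gave 0.21. Each was beyond its spot SD of 0.09, and the gap of 0.46 was 3.62 times its spot error. A gap of 0.32 or more, which is 25%, was found in 1 of the 4 subunit genes with 2 probes, Grik1, and in 16.7% of all genes with several probes. Such a gap with opposite signs was found in 366 of those 2845 genes, 12.9%. The array files name transcript variant 2 for the first probe and variant 1 for the second, but list both variants for each. The gene value, the midpoint, was -0.02.

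Grik2, which encodes the widely used subunit GluK2, was read by 1 spot on chromosome 20 from 53231518 to 53231577. Its signal was 405.8 in the male pool and 438.6 in the female pool, 0.14 apart, with a spot SD of 0.09. Grik3, on chromosome 5 from 145057988 to 145058047, plus strand, gave 58.0 and 44.8. The difference of -0.35 was a 1.27-fold male excess. It was 1.06 times the spot SD of 0.33 at this brightness, and 288 of 1792 genes (16.1%) in that class had a male excess of 25% or more. With normexp background correction it was -0.20, and with spike-in scaling it turned to 0.33.

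The kainate subunits that need a partner to form a channel are encoded by Grik4 (GluK4) and Grik5 (GluK5). The 10 spots of the Grik4 probe, on chromosome 8 from 45514232 to 45514291, ran from 531.9 to 677.8 with a median of 616.2 in the male pool. In the female pool they ran from 502.3 to 622.8 with a median of 534.3. These ranges overlapped, but spot by spot all 10 were higher on the male array, and the difference was -0.12 ± 0.07 (SD over 10 spots). Grik5, on chromosome 1 from 80313819 to 80313878, was read by 1 bright spot, at 22807 in the male pool and 23501 in the female pool. Its difference of 0.07 was as large as 1 spot SD, and with normexp correction it was -0.01.

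Within the kainate family, 10 pairs of genes were compared in the same scale-free way. Grik2 against Grik4 gave 0.26 with a spot error of 0.09, and Grik4 against Grik5 gave -0.19 with an error of 0.07. Over the alternatives computed the first ran from 0.19 to 0.26 and the second from -0.19 to -0.10, its smallest size being that with normexp correction. With the midpoint of both probes standing for Grik1, the other 8 pairs ranged in size up to 0.48, for Grik2 against Grik3. None of these 8 exceeded 1.47 times its spot error in that setting, an error that leaves out the gap between the Grik1 probes. Grik1 against Grik2 turned from -0.16 to 0.07 when the brighter probe of Grik1 stood for the gene. Grik1 against Grik5 then turned from -0.09 to 0.14, and Grik1 moved from 0.10 to 0.33 against Grik4 and from 0.32 to 0.55 against Grik3.

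**Figure D4:**
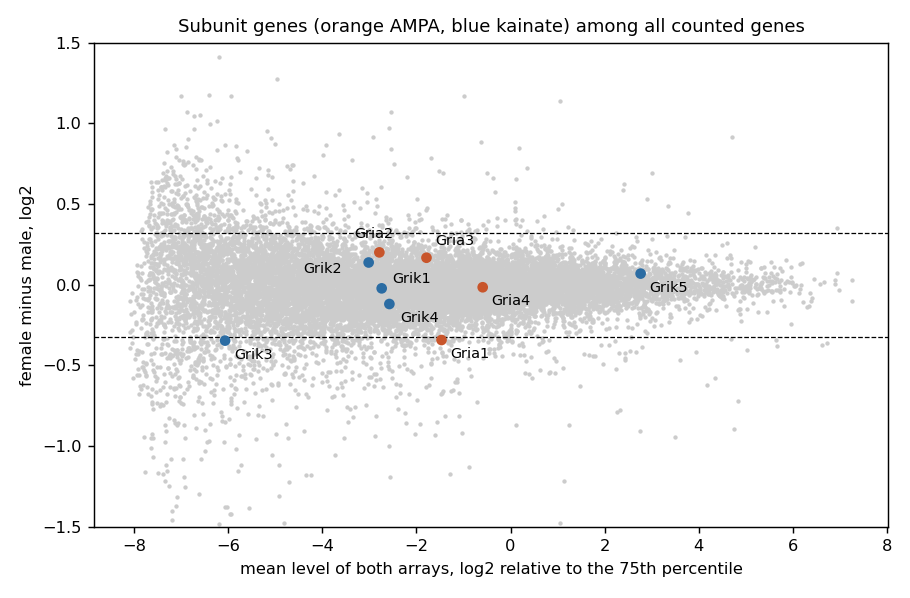
Difference between the pools (vertical axis, female minus male, log2) against the mean level of both arrays (horizontal axis, log2 relative to the 75th percentile) for 15562 genes in grey, with AMPA subunit genes in orange and kainate subunit genes in blue. Dashed lines mark an excess of 25%, and 28 genes beyond 1.5 on the vertical axis are not drawn; the spread widens towards dim genes, where Grik3 lies, and Gria1 lies at the lower edge of the cloud at its brightness.

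The other glutamate receptor families were set beside the AMPA and kainate subunits, as a description. The NMDA receptor subunits, which form the slower, calcium-permeable channels, had a median of -0.25. Of these, 6 of 7 were higher in the male pool, as were 8452 of all 15562 genes. An excess of 25% was reached by 2 of 7, Grin2a at -0.41 and Grin2d at -0.34, against 5.47% of all genes, and Grin2b gave -0.30. Grin2a, Grin2b and Grin2c were read by single spots in the array regions with many male-bright dim spots, and Grin2d was not. Gria1 at -0.34 thus had a difference like that of these subunits, while Gria2 and Gria3 lay on the other side of 0. The metabotropic receptors, which signal through G proteins, had a median of 0.05, with Grm6 at 0.27, Grm4 at 0.22 and Grm2 at 0.14. A female excess of any size was found in 6 of 8, against 45.7% of all genes. None of the 8 reached an excess of 25%, against 3.94% and 5.47% of all genes. Grid1, a relative that is not opened by glutamate, gave -0.12 on a single spot in an array region with many male-bright dim spots.

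Genes that work with AMPA and kainate receptors were described by 8 groups of 56 genes in all, Grid1 among them. Of these, 52 had a probe well above background on both arrays. A female excess of 25% was found in 0 of the 52, against 3.94% of all genes, and a male excess in 0, against 5.47%. Their median was -0.03.

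Auxiliary subunits of AMPA receptors, which set trafficking and gating, were measured for 13 of 15 listed genes. Their median was 0.05, with a female excess of any size in 7 and a male excess in 6. Olfm2 and Olfm3, secreted proteins found in AMPA receptor complexes, gave 0.29 and 0.20, and Olfm1 gave -0.19. The 10 spots of Olfm3 ran from -0.01 to 0.15 in the male pool and from 0.17 to 0.35 in the female pool, and did not overlap. The 2 probes of Olfm1 gave -0.34 and -0.04. Neto1, an auxiliary subunit of kainate receptors, gave 0.08. The 5 genes of receptor assembly in the endoplasmic reticulum ran from -0.14 for Sacm1l to 0.13 for Frrs1l, with Cpt1c at -0.13. The single Frrs1l spot lies in an array region with many male-bright dim spots.

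Scaffold and trafficking genes had a median of -0.05. In this group 8 of 12 were higher in the male pool, as were 8452 of all 15562 genes. Pick1, a scaffold that binds the tails of GluA2 and GluA3 and takes part in their removal from the surface, was lower in the female pool, at -0.25 ± 0.04 (SD over 10 spots). Its spots ran from -1.68 to -1.52 in the male pool and from -1.88 to -1.78 in the female pool, without overlap. Nsf, an ATPase that binds the GluA2 tail and keeps it at the surface, gave -0.22 on 1 spot, and Grip2, another scaffold of these tails, 0.18 with probes at 0.03 and 0.33. Genes of extracellular clustering gave a median of 0.07 over 6 genes, with C1ql2 at 0.19, C1ql3 at 0.16 and Nptxr at -0.09.

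RNA editing enzymes were examined as a group because the pore codon of Gria2 is changed by RNA editing. Adarb1, which encodes the enzyme that edits this site, gave 0.16 against a spot SD of 0.07. Its single spot lies in an array region with many male-bright dim spots. Adar gave -0.24 against 0.15, and the dim Adarb2 gave 0.03. The arrays measure transcript signal and not editing. Kinases and phosphatases that act on the subunits had a median of -0.01 over 10 genes, with Camk2g at 0.24 and Fyn at -0.19. The single Fyn spot, too, lies in an array region with many male-bright dim spots.

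**Figure D5:**
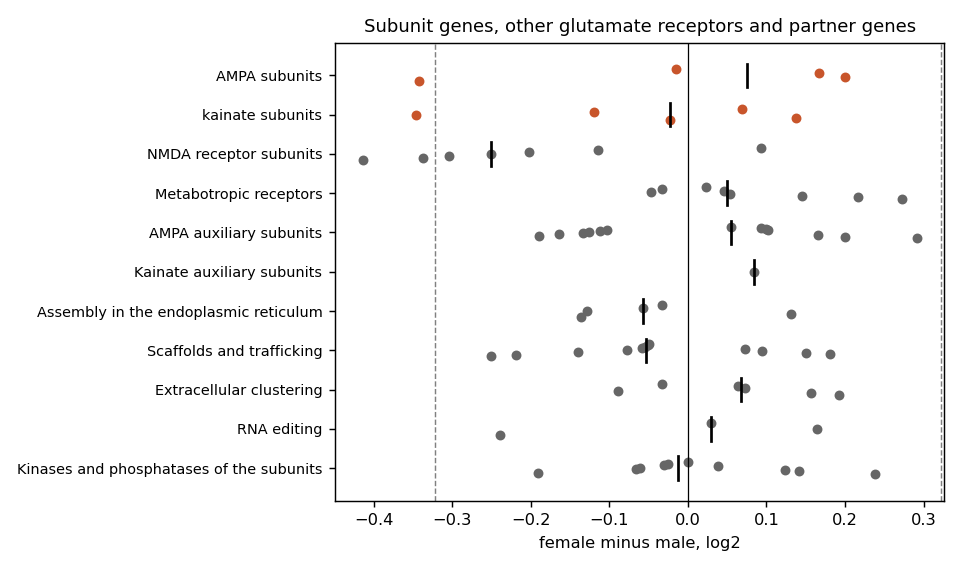
Difference between the pools (horizontal axis, female minus male, log2) for each gene of the AMPA and kainate subunits (orange) and of the other receptor families and partner groups named on the vertical axis (grey), with the group median as a vertical bar and an excess of 25% as dashed lines. Of the genes drawn, Gria1, Grik3, Grin2a and Grin2d lie beyond the line on the male side and none on the female side.

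The tissue was checked with marker genes. Th and Dbh, enzymes of the noradrenergic neurons of this region, stood at levels of 3.80 and 3.34 in the male pool and of 3.83 and 3.28 in the female pool. They were the members with the smallest differences among 6 counted markers of the dorsal hindbrain and NTS. The others were Prlh, a neuropeptide gene, at 0.62 on a single spot in an array region with many male-bright dim spots, Lmx1b at 0.23, Phox2a at 0.10 and Tlx3 at -0.07. Phox2a, too, was read by a single spot in such a region. The summed level of the 6, as a multiple of the 75th percentile, was 29.6 in the male and 31.8 in the female pool. Gabra6, a marker of cerebellar granule cells, did not rise well above background on any array. The same sum was 48.1 in the male and 50.8 in the female pool for 9 counted neuron markers of 10. For 7 astrocyte markers it was 22.6 and 21.4, for 6 oligodendrocyte precursor markers 7.53 and 8.55, and for 7 oligodendrocyte markers 24.3 and 25.3. For 6 of 7 cerebellar markers it was 1.12 and 0.97, for 4 microglia markers 4.09 and 3.56, and for 3 red cell markers 3.20 and 2.15. For 4 markers of meninges it was 12.6 and 7.33, and for 4 of choroid plexus 16.1 and 13.8. Each sum is led by the brightest probes of its list. The median differences were 0.08 for the cerebellar and -0.01 for the neuron markers, opposite in direction to their sums. For the oligodendrocyte markers the median difference was 0.27. A male excess of 25% or more, found in 5.47% of all genes, was reached by 4 of 4 meninges, 3 of 3 red cell, 2 of 4 choroid plexus, 1 of 4 microglia and 2 of 6 cerebellar markers. A female excess of that size, found in 3.94% of all genes, was reached by 2 of 7 oligodendrocyte, 2 of 6 cerebellar and 1 of 6 hindbrain markers, the last being Prlh. No neuron, astrocyte or oligodendrocyte precursor marker reached it in either direction. Slc47a1, a meninges marker at -0.42, and Ttr, a choroid plexus marker at -0.21, were single spots in array regions with many male-bright dim spots. All members of the microglia, red cell, meninges and choroid plexus lists were higher in the male pool, a direction shared by 8452 of all 15562 genes. The part of these cell types in the differences of the subunit genes was not tested.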

How the data were processed

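The deposited values are intensity readings of Cy3 on single-colour Agilent arrays. The software is Agilent Feature Extraction, version 10.7.3.1 in the file headers and 9.1 in the submitters' processing notes. Background subtraction and detrending within each array were part of the processed intensity, per the file headers, which also name rn4 as the build of the coordinates. The authors' deposited value table equalled this intensity times 1 factor per array, so it is linear and not centred, with column medians of 28.0 (male) and 27.3 (female).

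Control spots and 430 rat spots with an outlier flag were left out, none of them a subunit spot. Log2 signals were set relative to the 75th percentile of rat spots, 3441 (male) and 3380 (female). Of the rat spots, 85.5% and 87.9% were well above background, and 0 were saturated. Spots of a probe were averaged. A probe counted when most of its spots were well above background on both arrays, and a gene took the median of its counted probes. Symbols came from the GRCr8 reference table for 19785 of 30367 probes, all 9 subunit genes among them, and otherwise from the array files. With 1 array per sex there was no test, and precision is limited by that number. The threshold was an excess of 25% in 1 pool. Named partner genes were the 3 largest differences of each group, of which some are not reported here. The subunits, groups, threshold and alternatives were chosen with earlier results of these data known. Python 3.11.15, pandas 2.3.3, statsmodels 0.14.6 and limma 3.58.1 were used, and the steps were tested on simulated data.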

Additional observations from a re-analysis of the deposited data

How the results depend on the processing

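All 9 subunit genes stayed below 2-fold under every alternative, and below 1.5-fold in the setting used for the report. The count of subunit genes with a male excess of 25%, 2 in the report, was 1 with quantile normalization, with the trend against brightness removed and among probes brighter than the median counted probe, where only 5 of the 9 genes were left. It was 0 with median scaling, normexp correction, spike-in scaling or a threshold of 1.5-fold. Gria1 stayed between -0.36 and -0.31 under all alternatives other than spike-in scaling, so its count turns on its closeness to the threshold.

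Spike-in scaling shifted the median of all genes by 0.68. It gave 9 subunit genes and 52 partner genes with a female excess of 25%, against 95.5% of all genes. The medians were then 0.75 for AMPA and 0.65 for kainate subunits, and Gria1 and Grik3 each stood at 0.33. At 1.1-fold, 3 subunit genes and 10 of the 52 partner genes had a female excess, against 15.2% of all genes. A male excess of that size was found in 2 subunit genes and 7 partner genes, against 19.6% of all genes. Partner genes with a female excess of 25%, 0 in the report, were 1 with median scaling, 1 among the brighter probes and 1 where the brightest probe stood for a gene.

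No paired analysis was possible because each sex has 1 array. Signal near background limits Grik3, and single spots limit Grik2, Grik5 and both probes of Gria2, Gria3 and Grik1.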
